A study of Mus musculus with 8 samples.

Results

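The genes described here encode the proteins that bring glucose into the cell, break it down by glycolysis and divert it into the pentose phosphate pathway, in mouse embryonic fibroblasts that expressed either the PKM2 or the PKM1 isoform of pyruvate kinase. A list of 33 genes was matched by symbol to the annotation of the array. Of these, 28 had a probe set that carries their symbol alone, and where a gene had several, the brightest by its mean stood for it. Gapdh was carried only by probe sets with several symbols and is described apart, and Gpi1, Pfkfb1, Eno1 and G6pdx were not analysed here. RNA of primary mouse embryonic fibroblasts, connective tissue cells grown from embryos, was hybridised to Affymetrix microarrays, 8 in all, and 19938 genes were tested. The 4 groups, of 2 arrays each, were line A (MEF10) without tamoxifen, labelled PKM2 expressing, line A with tamoxifen, labelled PKM1 expressing, and line B (MEF16) without and with tamoxifen, labelled in the same way. The question put by the design is what differs when cells that make PKM2 make PKM1 instead. The labels name no allele, no Cre driver, no dose, no duration and no control cells given tamoxifen without the isoform change, so tamoxifen and the isoform change cannot be told apart. The replicates were numbered in sample order, since the titles carry only a serial array number that runs on through all groups. The labels also do not say whether the 2 arrays of a group came from separate cultures, so the p-values rest on the scatter of these samples, which may be technical alone. Values are log2 expression values, on which a difference of 1 is a doubling, and differences are tamoxifen minus no tamoxifen or line B minus line A.

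Glycolysis turns glucose into pyruvate and yields ATP and NADH on the way. The oxidative branch of the pentose phosphate pathway takes glucose 6-phosphate off this route and makes NADPH, and its non-oxidative branch makes ribose 5-phosphate for nucleotides and exchanges sugars with glycolysis in both directions. Pyruvate kinase closes glycolysis. PKM2, the isoform of many proliferating cells, can switch between a less and a more active form, whereas PKM1 is active throughout. Many of these genes are known targets of the hypoxia factor HIF1 and of MYC.

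Promoter sequences of the genes on which the results turn are given first, because a set of the genes moved together from array to array. They are the 250 bases before an annotated start, from RefSeq on GRCm38.p6, 5′ to 3′ on the strand of the gene, and a gene can have several such windows. Slc2a1 and Tkt stand for the genes that moved together, 1 from glucose uptake and 1 from the pentose phosphate pathway, each with a single window, and Pgk1 for a gene that was nearly flat. Capitals mark ACGTG or GCGTG on either strand (CACGT or CACGC when read on the other), the core bound by HIF1 and by E-box factors. The windows lie at chr4:119108495-119108744 (plus strand) for Slc2a1, chr14:30548881-30549130 (plus strand) for Tkt and chrX:106186850-106187099 (plus strand) for Pgk1.
Slc2a1: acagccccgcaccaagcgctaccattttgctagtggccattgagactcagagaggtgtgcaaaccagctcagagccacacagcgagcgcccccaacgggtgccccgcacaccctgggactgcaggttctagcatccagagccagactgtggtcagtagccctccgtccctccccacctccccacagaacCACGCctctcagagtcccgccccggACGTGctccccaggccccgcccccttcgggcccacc
Tkt: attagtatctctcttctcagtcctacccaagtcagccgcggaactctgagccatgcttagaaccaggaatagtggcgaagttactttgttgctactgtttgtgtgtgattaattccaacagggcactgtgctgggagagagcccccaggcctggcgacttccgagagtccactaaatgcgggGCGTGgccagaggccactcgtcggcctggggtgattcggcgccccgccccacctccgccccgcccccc
Pgk1: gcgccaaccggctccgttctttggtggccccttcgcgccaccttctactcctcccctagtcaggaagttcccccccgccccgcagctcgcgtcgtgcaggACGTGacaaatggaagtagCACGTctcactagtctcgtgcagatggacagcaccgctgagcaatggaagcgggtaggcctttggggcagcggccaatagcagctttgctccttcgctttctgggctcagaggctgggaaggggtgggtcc
The core occurred 2 times in the Slc2a1 window, 1 time in that of Tkt and 2 times in that of Pgk1. RefSeq windows were found for 31 of the 33 genes, 47 windows in all, and 32 of them (68.1%) held the core, against 38.6% of all 32817 promoter windows of that length. The E-box CACGTG, which contains the core, was in 4 of the 47 windows (8.51%) and in 6.02% of all, and the GC box GGGCGG was in 51.1% and in 32.7%. A match is a description of the letters and shows no binding.

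The arrays of line B did not fall together by group. Without tamoxifen the pair of line B arrays correlated at r = 0.9907 over all genes and with tamoxifen at 0.9894. Across the treatments, line B without tamoxifen replicate 2 and line B with tamoxifen replicate 1 correlated at 0.9944, and the remaining pair at 0.9946. In line A the pairs of one group correlated at 0.9956 and 0.9974. Ifit1, Mmp13 and Mki67, picked after their values were seen, nevertheless followed the tamoxifen labels on all 8 arrays: Ifit1 lay between 6.26 and 6.6 on the 4 arrays without tamoxifen and between 8.57 and 9.34 on those with it. The leading axis of variation within groups, computed from 19720 genes on none of the lists, held 61.6% of that variation. Its scores were 0.45 and 0.49 for line B without tamoxifen replicate 2 and with tamoxifen replicate 1, and −0.45 and −0.49 for their partners. Line A without tamoxifen was spread along the same axis, at 0.22 for replicate 1 and −0.22 for replicate 2, and line A with tamoxifen less so, at 0.06 and −0.06.

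Scatter within groups held a larger share of the variation of the glycolysis and pentose phosphate genes than of all genes, and much of it ran along this split of line B. Scatter within groups held a median of 69.9% of the sum of squares of the 28 genes and tamoxifen 7.61%, against 57.9% and 10% over all genes. The line held 5.51%, against 8.58%, and the difference of the tamoxifen effect between the lines 2.82%, against 5.55%. The median SD within groups was 0.121 for the 28 genes and 0.114 for all genes. A typical gene of the 28 thus scattered little more than a typical gene of the array. Within groups there are 4 degrees of freedom and for tamoxifen 1, so the larger share within groups is in part set by the design. Only the comparison with all genes is informative here. Of the 28 genes, 8 were higher by at least 0.3 on both arrays at the high end than on their group partners, namely Slc2a1, Pfkl, Aldoa, Tpi1, Pgam1, H6pd, Pgd and Tkt. The same held for 4.66% of all 19938 genes, and the threshold of 0.3 was chosen after the values were seen. Hk2 fell just outside it, with gaps of 0.28 and 0.46 in size. At any size, both gaps ran this way for 18 of the 28 (64.3%), against 30.8% of all genes. No gene of the 28 showed the reverse split at that size, which 4.04% of all genes did. The axis accounted for a median of 74.4% of the within-group variation of the 28 genes and for 40.4% over all genes, and 19 of the 28 (67.9%) were higher at its high end, against 51% of all genes. These shares describe 8 arrays and carry no test, and what sets the line B arrays apart was not tested. The shares over all genes were not matched for expression level. The median gene mean was 7.34, and the 8 genes with the split had means from 7.49 to 11.09.

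**Figure D1:**
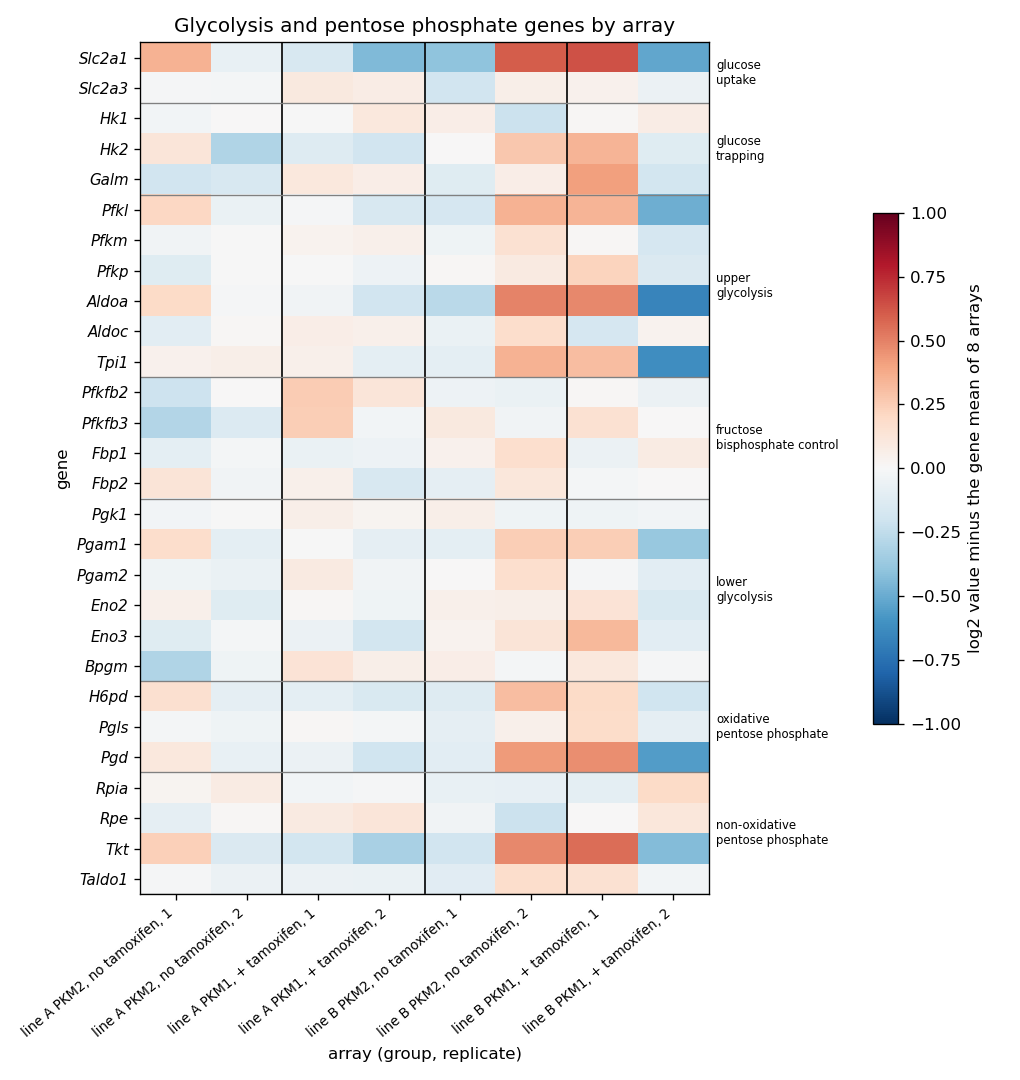
Log2 value of each of the 28 genes on each of the 8 arrays, minus the gene's own mean over the arrays; rows are grouped by the step of the pathway and columns by line and treatment. Slc2a1, Aldoa, Tpi1, Pgd and Tkt are red on line B without tamoxifen replicate 2 and with tamoxifen replicate 1, and blue on their partners. The blue of Tpi1 and Pgd is faint on line B without tamoxifen replicate 1.

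**Figure D2:**
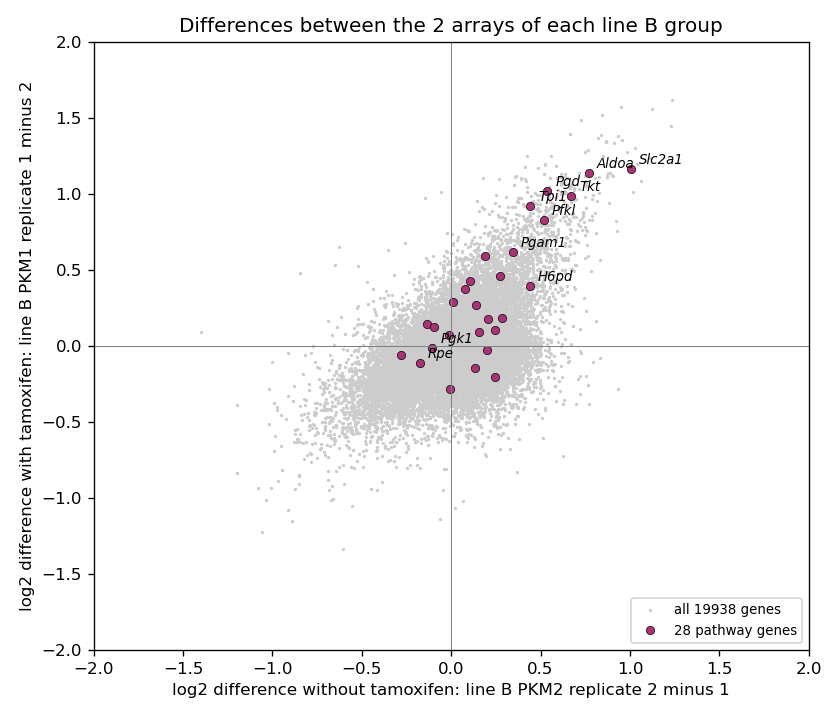
Difference between the arrays of each line B group, in log2 units, without tamoxifen on the horizontal axis (replicate 2 minus 1) and with tamoxifen on the vertical axis (replicate 1 minus 2); grey points are all 19938 genes and purple points the 28 genes. Slc2a1, Aldoa, Tkt, Pgd, Pfkl and Tpi1 lie at the upper right edge of the cloud, and Pgk1 and Rpe near its centre.

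Slc2a1, which encodes the glucose transporter GLUT1, had values of 9.63 and 9.21 in line A without tamoxifen, 9.12 and 8.84 in line A with it, 8.88 and 9.89 in line B without it and 9.92 and 8.76 in line B with it. The high and the low array of each line B group were about a doubling apart, with replicate 2 minus replicate 1 at 1.01 without tamoxifen and −1.16 with it. The SD of Slc2a1 within groups was 0.572, at percentile 99.9 of all genes. In line A both arrays with tamoxifen lay below both without it, whereas in line B the treatments overlapped. The pair of line A arrays without tamoxifen differed in the order of the axis too, as they did for Tkt and Hk2. Slc2a3, the transporter GLUT3, ranged from 6.45 to 6.74 and varied less, with an SD of 0.0958 within groups.

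The split continued down the pathway. Aldoa, the aldolase that cleaves fructose 1,6-bisphosphate, had values of 11.28 and 11.08 in line A without tamoxifen, 11.06 and 10.9 in line A with it, 10.82 and 11.59 in line B without it and 11.57 and 10.43 in line B with it. Tpi1, the triosephosphate isomerase, had values of 10.32 and 10.34 in line A without tamoxifen, 10.33 and 10.18 in line A with it, 10.18 and 10.63 in line B without it and 10.59 and 9.66 in line B with it. For both genes the highest and the lowest of the 8 arrays were line B arrays of different ends of the axis, and the treatments overlapped in line B. Pfkl, the liver-type phosphofructokinase, had values of 7.7 and 7.42 in line A without tamoxifen, 7.48 and 7.33 in line A with it, 7.32 and 7.84 in line B without it and 7.83 and 7 in line B with it. Pgam1, the phosphoglycerate mutase of most tissues, had values of 9.97 and 9.7 in line A without tamoxifen, 9.79 and 9.71 in line A with it, 9.7 and 10.04 in line B without it and 10.04 and 9.42 in line B with it. Its 3 probe sets gave tamoxifen differences of −0.11, −0.18 and −0.11, with identical values for 2 of them.

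In the pentose phosphate pathway the split appeared in both branches. Tkt, the transketolase of the non-oxidative branch, had values of 8.56 and 8.18 in line A without tamoxifen, 8.14 and 8 in line A with it, 8.13 and 8.8 in line B without it and 8.88 and 7.89 in line B with it. Pgd, the dehydrogenase that makes the second NADPH of the oxidative branch, had values of 10.05 and 9.87 in line A without tamoxifen, 9.89 and 9.75 in line A with it, 9.84 and 10.37 in line B without it and 10.41 and 9.39 in line B with it. H6pd, a hexose 6-phosphate dehydrogenase of the endoplasmic reticulum, had values of 8.06 and 7.81 in line A without tamoxifen, 7.8 and 7.75 in line A with it, 7.77 and 8.21 in line B without it and 8.09 and 7.7 in line B with it. The axis held 98.7% of the within-group variation of Slc2a1, 98.6% of that of H6pd and 98% of that of Tkt. Within groups the SD was 0.494 for Aldoa, 0.446 for Tkt and 0.416 for Pgd, at percentiles 99.7, 99.5 and 99.2 of all genes.

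**Figure D3:**
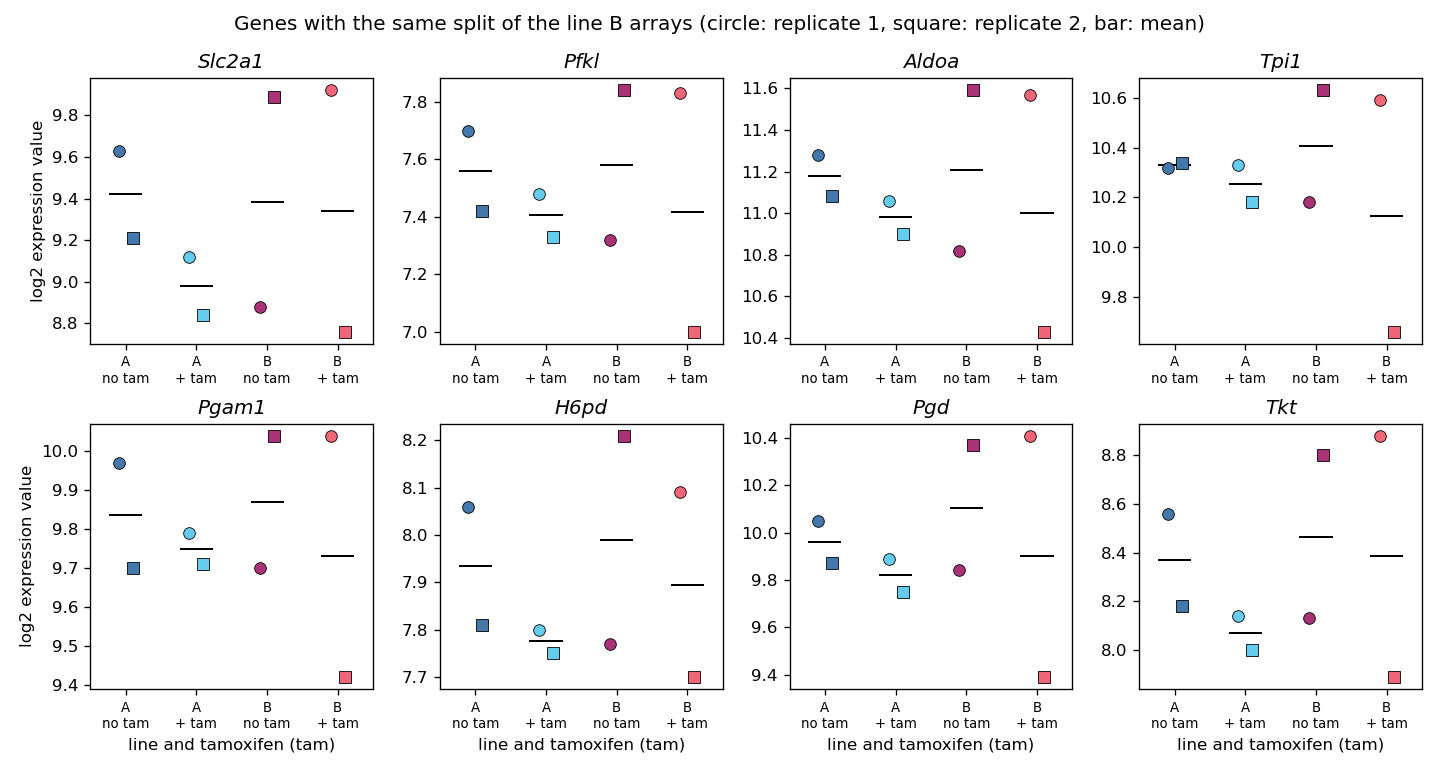
Log2 expression values of the 8 genes with the shared split, by line and treatment; circles are replicate 1, squares replicate 2 and bars the mean of the pair, and each panel has its own vertical range. In line B one circle and one square are high and their partners low in every panel, while the group means of Aldoa, for example, lie between 10.98 and 11.2.

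Some genes of the same steps did not share the split, while others followed the axis with smaller gaps. Taldo1, Pgls and Hk2 had 89.8%, 88% and 86% of their within-group variation on it, all higher at the high end. Pgk1, the phosphoglycerate kinase, had values of 12.45 and 12.48 in line A without tamoxifen, 12.54 and 12.51 in line A with it, 12.54 and 12.44 in line B without it and 12.44 and 12.45 in line B with it. Its SD within groups of 0.04 was at percentile 3.22 of all genes. The axis held 54.2% of this small scatter, and Pgk1 was low at its high end. Of the 3 probe sets of Pgk1, 2 held identical values. Whether these probe sets also bind copies of Pgk1 or Pgam1 elsewhere in the genome was not tested. Pfkfb2 and Pfkfb3 owed 0.24% and 0.0819% of their within-group variation to the axis. Rpe, the ribulose phosphate epimerase, was also low at the high end of the axis. The axis held 92.5% of the within-group variation of Rpe, although the SD of Rpe within groups was only 0.0822. Of the 8 genes with the split, 6 had the ACGTG or GCGTG core in a window printed or searched above, as did 13 of the 18 genes without it that had a window.

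Tamoxifen changed none of the 28 genes by the test. Over both lines 0 of 28 passed limma's test at an adjusted p of 0.05, against 263 of 19938 genes (1.32%). An unadjusted p under 0.05 was found for 1 of the 28 and for 1964 of all 19938 genes. The median difference of the 28 was −0.02, with 12 above and 16 below 0. That of all genes was −0.01, with 8894 above and 11044 below 0. In line A 0 of 28 passed, against 0.502% of all genes, and the median of the 28 was 0.01. Under an unadjusted 0.05 lay 3 of the 28 and 1614 of all genes. In line B 0 passed, against 0.0201%, and the median of the 28 was −0.04. Under an unadjusted 0.05 lay 0 of the 28 and 962 of all genes. The difference between the effects of the lines passed for 0 genes of the 28 and for 0% of all genes. Under an unadjusted 0.05 lay 0 of the 28 and 565 of all genes. For none of the 28 were the 4 arrays with tamoxifen separate from the 4 without, which 5.31% of all genes were. Within line A, where 47.6% of all genes were separate, 11 of the 28 (39.3%) were higher on both arrays with tamoxifen, against 21.3% of all genes, and 5 (17.9%) lower, against 26.2%. Within line B, where 24.8% were separate, 1 of the 28, Rpe, was higher, against 12% of all genes, and 1, Pgam2, lower, against 12.9%.

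**Figure D4:**
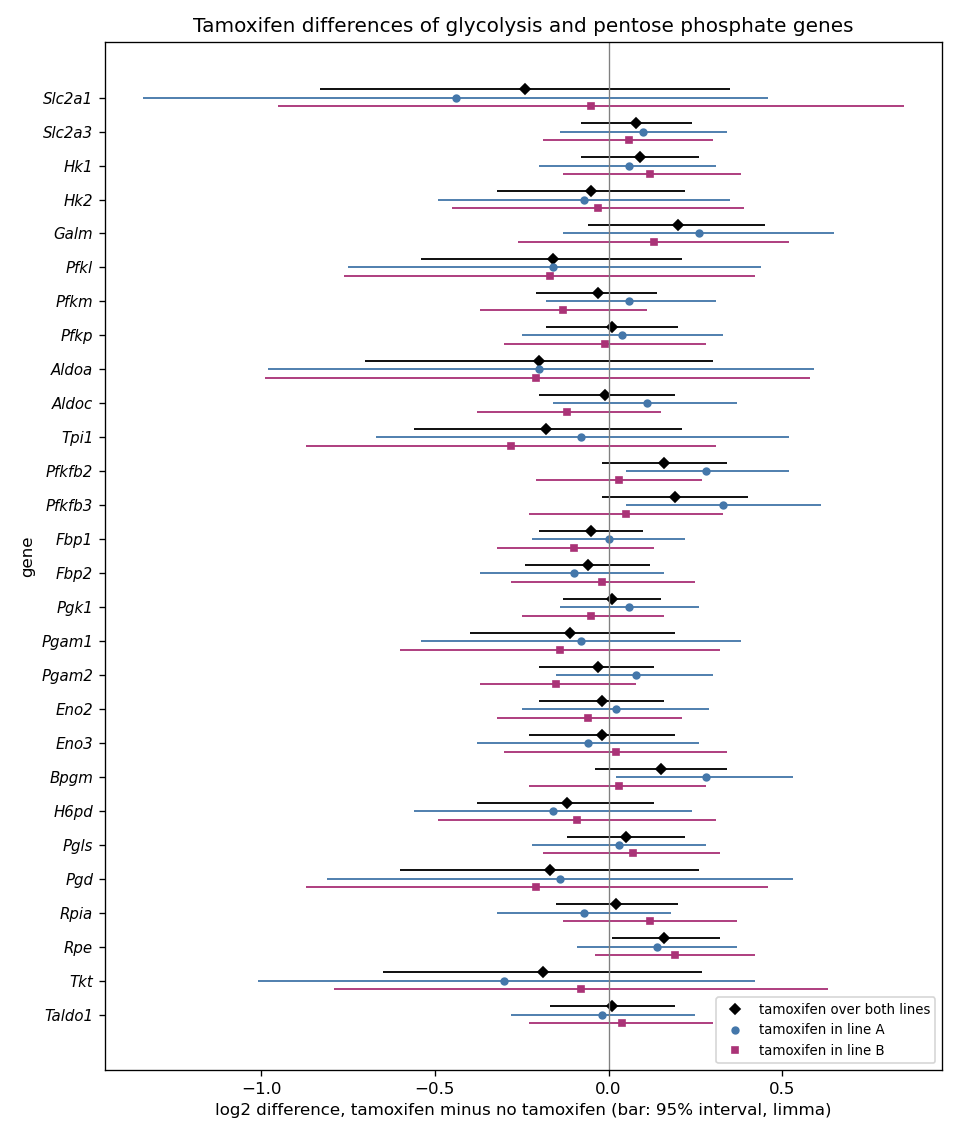
Log2 difference of each of the 28 genes, tamoxifen minus no tamoxifen, over both lines (black), in line A (blue) and in line B (purple), with 95% intervals from limma. The intervals of Slc2a1, Aldoa, Tkt, Pgd and Tpi1 are wide, Pgk1 has the narrowest, and no difference passed after adjustment.

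At glucose entry, Slc2a1 had the lowest difference over both lines, −0.24 (SE 0.27, 95% interval −0.83 to 0.35, limma adjusted p = 0.85). In line A it was −0.44, or 0.739-fold (SE 0.40, interval −1.34 to 0.46, limma adjusted p = 0.872). With the axis as a covariate, a fit added after the data were seen, the SE in line A was 0.09 and the limma adjusted p 0.0235 at the same difference. The axis was drawn from the scatter within groups of these same arrays and held 98.7% of that of Slc2a1. Taking it out shrinks the SE by construction and leaves the difference as it was, so this p-value is no support for a change. Hexokinase 2, encoded by Hk2, traps glucose in the cell as glucose 6-phosphate and differed by −0.05 (SE 0.12). Its values were 8.1 and 7.68 in line A without tamoxifen, 7.85 and 7.79 in line A with it, 7.98 and 8.25 in line B without it and 8.32 and 7.86 in line B with it. Galm, which interconverts the anomers of sugars, had values of 7.97 and 8 in line A without tamoxifen, 8.27 and 8.23 in line A with it, 8.04 and 8.23 in line B without it and 8.57 and 7.98 in line B with it. In line A both Galm values with tamoxifen were above both without, by 0.26 on average (SE 0.17, limma adjusted p = 0.807), and over both lines the difference was 0.20 (SE 0.12, limma adjusted p = 0.658). Galm passed over both lines, at 0.29 (SE 0.07, limma adjusted p = 0.0374), only when line B without tamoxifen replicate 1 and with tamoxifen replicate 2 were left out together, a pair picked after the data were seen.

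The highest differences in line A were those of Pfkfb3, Pfkfb2 and Bpgm, and none passed the test. PFKFB2 and PFKFB3 make fructose 2,6-bisphosphate, the activator of phosphofructokinase. Pfkfb3 had values of 7.58 and 7.74 in line A without tamoxifen, 8.12 and 7.85 in line A with it, 7.97 and 7.84 in line B without it and 8.03 and 7.88 in line B with it. Pfkfb2 had values of 8.54 and 8.75 in line A without tamoxifen, 9 and 8.87 in line A with it, 8.7 and 8.68 in line B without it and 8.76 and 8.69 in line B with it. For both genes the line A arrays with tamoxifen were higher than those without, by 0.33 for Pfkfb3 (SE 0.12, interval 0.05 to 0.61, limma adjusted p = 0.509) and by 0.28 for Pfkfb2 (SE 0.11, interval 0.05 to 0.52, limma adjusted p = 0.491). In line B the treatments overlapped, at 0.05 (SE 0.12) and 0.03 (SE 0.11). The tamoxifen difference in line B minus that in line A was −0.28 for Pfkfb3 (SE 0.17, limma adjusted p = 1) and −0.25 for Pfkfb2 (SE 0.15, limma adjusted p = 1). Fbp1 and Fbp2, the bisphosphatases of gluconeogenesis, ranged from 5 to 5.27 and from 6.35 to 6.64 and differed by −0.05 (SE 0.07) and −0.06 (SE 0.08) over both lines. With no detection calls used, it is not known whether Fbp1 was above background.

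From phosphofructokinase to the trioses, 5 of 6 differences over both lines were below 0, with a median of −0.10. Over all 19938 genes 11044 were below 0, with a median of −0.01. Aldoa differed by −0.20 (SE 0.23), Tpi1 by −0.18 (SE 0.17) and Pfkl by −0.16 (SE 0.17), in each case less than the spread between the line B arrays. Pfkm and Pfkp, the muscle and platelet phosphofructokinases, ranged from 7.77 to 8.09 and from 9.17 to 9.54 and differed by −0.03 (SE 0.08) and 0.01 (SE 0.09). Aldoc, the aldolase of brain, ranged from 6.83 to 7.17 and differed by −0.01 (SE 0.09). In lower glycolysis the differences lay between −0.11 (Pgam1, SE 0.13) and 0.15 (Bpgm, SE 0.09). Bpgm, which makes 2,3-bisphosphoglycerate, had values of 7.94 and 8.2 in line A without tamoxifen, 8.38 and 8.3 in line A with it, 8.31 and 8.22 in line B without it and 8.35 and 8.23 in line B with it. In line A it was higher with tamoxifen by 0.28 (SE 0.11, interval 0.02 to 0.53, limma adjusted p = 0.57), and in line B the arrays overlapped. Pgk1 differed by 0.01 (SE 0.06, interval −0.13 to 0.15) over both lines, Eno2, the neuronal enolase, by −0.02 (SE 0.08) and Eno3, the muscle enolase, by −0.02 (SE 0.09).

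Pgam2, the muscle phosphoglycerate mutase, was the one gene of the 28 whose arrays separated in opposite directions. It had values of 7.32 and 7.3 in line A without tamoxifen, 7.45 and 7.33 in line A with it, 7.37 and 7.53 in line B without it and 7.35 and 7.26 in line B with it. With tamoxifen it was higher by 0.08 in line A (SE 0.10) and lower, at −0.15, in line B (SE 0.10). The tamoxifen difference in line B minus that in line A was −0.23 (SE 0.14, limma adjusted p = 1). Such opposite separation was found for 3.57% of the 28 genes and 3.6% of all genes.

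In the pentose phosphate pathway, Rpe had the smallest p-value of the 28 genes over both lines. Rpe had values of 9.66 and 9.76 in line A without tamoxifen, 9.84 and 9.87 in line A with it, 9.71 and 9.53 in line B without it and 9.75 and 9.86 in line B with it. Both arrays with tamoxifen were above both without in each line, but the 4 arrays with tamoxifen overlapped the 4 without once the lines were combined. The difference was 0.16 over both lines (SE 0.07, interval 0.01 to 0.32, limma adjusted p = 0.457), 0.14 in line A (SE 0.10) and 0.19 in line B (SE 0.10). Tkt differed by −0.19 (SE 0.21), with −0.30 in line A (SE 0.31) and −0.08 in line B (SE 0.31), Pgd by −0.17 (SE 0.19) and H6pd by −0.12 (SE 0.12). Pgls, the lactonase between the oxidative steps, ranged from 7.99 to 8.26, Rpia, the ribose phosphate isomerase, from 6.66 to 6.95 and Taldo1, the transaldolase, from 7.46 to 7.75. Their differences over both lines were 0.05 (SE 0.08), 0.02 (SE 0.08) and 0.01 (SE 0.08).

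How large a change could have gone unseen differed between the genes. Over both lines the 95% interval lay within 0.25 of 0 for 13 of the 28 genes, within 0.5 for 22 and within 1 for 28. In line A it lay within 0.5 for 16 and within 1 for 26, the exceptions being Slc2a1 and Tkt, and in line B within 0.5 for 20 and within 1 for 28. For the tamoxifen difference in line B minus that in line A, Slc2a1, Aldoa, Tpi1, Pgd and Tkt had intervals that reached beyond 1. A p-value above the threshold therefore does not show that Slc2a1 or Tkt stayed the same.

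Gapdh, the glyceraldehyde 3-phosphate dehydrogenase, was carried by 25 probe sets that also name other genes, among them copies of it, so its signal and theirs cannot be told apart. The median of the 25 was 13.15 and 12.96 in line A without tamoxifen, 12.78 and 12.75 in line A with it, 12.73 and 13.0 in line B without it and 13.09 and 12.61 in line B with it. In line A both arrays with tamoxifen were below both without, and in line B the order of the arrays was that of the axis, with smaller gaps than those of Aldoa: 3 of the 25 probe sets had both gaps of at least 0.3. The 25 are not separate measurements, since they held only 20 distinct sets of values to 3 decimals. In line A all 25 differences were below 0, from −0.31 to −0.24, and the brightest probe set differed by −0.29 (SE 0.10, limma adjusted p = 0.456 over 23410 named probe sets). In line B the 25 differences ran from −0.10 to 0.07, and 0 of 25 passed in any comparison. The tamoxifen difference in line B minus that in line A was 0.31 for the brightest (SE 0.15, limma adjusted p = 1).

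**Figure D5:**
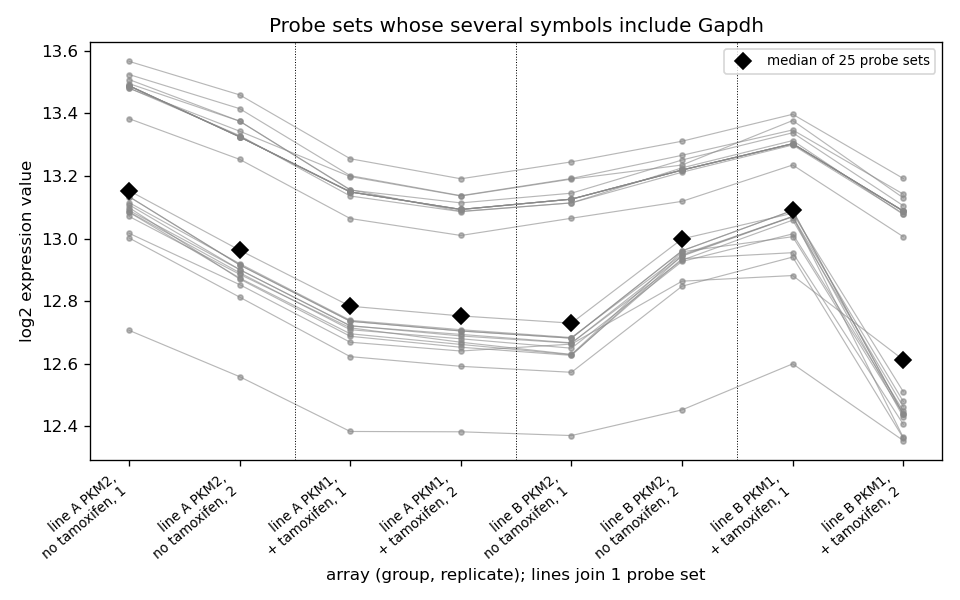
Log2 expression values of the 25 probe sets whose symbols include Gapdh, on the 8 arrays; each grey line joins the values of 1 probe set and black diamonds are the median. The median runs from 13.15 to 12.75 across the line A arrays and from 12.61 to 13.09 among the line B arrays.

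Hk1, the hexokinase of brain and red cells, is uncertain here. Its chosen probe set, with values of 12.87 and 12.9 in line A without tamoxifen, 12.89 and 13 in line A with it, 12.96 and 12.68 in line B without it and 12.91 and 12.97 in line B with it, has a mean of 12.9, inside the range of 12.24 to 13.21 of the 16 probe sets annotated with Hk1 together with other genes. All 16 also name Rpl17. The other probe set that carries the symbol Hk1 alone has a mean of 8.3. Its values were 8.523 and 8.154 in line A without tamoxifen and 8.414 and 8.147 with it. In line B they were 8.214 and 8.464 without tamoxifen and 8.537 and 7.935 with it, in the order of the axis. The counts of genes above used the chosen probe set, which was low at the high end of the axis. The tamoxifen difference over both lines was 0.09 (SE 0.08) on the chosen probe set and −0.08 (SE 0.14) on the other, so that its sign depends on the probe set.

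Between the lines, 0 of the 28 genes passed over both treatments, against 1.47% of all genes. An unadjusted p under 0.05 was found for 0 of 28 and for 1625 of all 19938 genes. The counts were 0 of 28 without tamoxifen, against 0.326%, and 0 of 28 with it, against 0.532%. Again 0 of the 28 lay under an unadjusted 0.05, beside 1036 of all genes without tamoxifen and 1340 with it. For 0 of the 28 were the 4 arrays of line B separate from the 4 of line A, as they were for 4.89% of all genes. The median of the 28 was 0.03, with 19 above 0, beside 0.02 for all 19938 genes, with 11706 above 0. Hk2 had the highest difference, 0.25 (SE 0.12, limma adjusted p = 0.669), followed by Tkt at 0.21 (SE 0.21) and Eno3 at 0.19 (SE 0.09, limma adjusted p = 0.685). Eno3 had values of 8.34 and 8.44 in line A without tamoxifen, 8.4 and 8.27 in line A with it, 8.49 and 8.59 in line B without it and 8.78 and 8.35 in line B with it, and the lines overlapped.

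The line comparison depended on which line B arrays were kept. With replicate 2 of line B without tamoxifen and replicate 1 with it left out, the difference between the lines was −0.46 for Aldoa, −0.38 for Slc2a1 and −0.21 for Tkt. With their partners left out it was 0.50, 0.70 and 0.62. These genes are among those named for being high on the first pair, so the choice of arrays fixes these directions, and the values are given as a description only. Of 10 macrophage markers 4 passed and were higher in line B, where 1.47% of all genes passed between the lines in either direction. They were Lyz2 by 1.83, Tyrobp by 0.73, Fcer1g by 0.62 and Adgre1 by 0.59, with limma adjusted p at most 0.0106. The mean of the 10 markers lay between 6.97 and 7.16 on line B arrays and between 6.4 and 6.61 on line A arrays. Their part in the values of the glycolysis genes was not tested.

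The remaining genes of carbohydrate metabolism gave the same picture of few calls. Of 55 other genes of the pathway measured, 0 passed for tamoxifen over both lines. An unadjusted p under 0.05 was found for 7 of the 55 and for 1964 of all 19938 genes. Pygl, the liver glycogen phosphorylase, was nearest, at 0.34 (SE 0.07, limma adjusted p = 0.0519), then Prps2, which makes phosphoribosyl pyrophosphate from ribose 5-phosphate, at 0.32 (SE 0.08, limma adjusted p = 0.115). Pkm itself, whose one gene-level value does not give the isoforms apart, had values of 11.19 and 10.99 in line A without tamoxifen, 10.86 and 10.74 in line A with it, 10.82 and 11.21 in line B without it and 11.41 and 10.75 in line B with it. Ldha, the lactate dehydrogenase subunit that turns pyruvate into lactate, had 12.42 and 12.33, 12.17 and 12.1, 11.97 and 12.51, and 12.41 and 11.36 in the same order. Both showed the line B split, as did Pfkfb4, G6pc3, Galt and Gys1, 6 of the 55 in all, where 4.66% of all genes had it. Pkm differed by −0.11 (SE 0.15, limma adjusted p = 0.883) and Ldha by −0.30 (SE 0.19, limma adjusted p = 0.712) with tamoxifen. Between the lines 1 of 55 passed, against 1.47% of all genes. It was Pgm2l1, a maker of glucose 1,6-bisphosphate, which was higher in line B by 0.47 (SE 0.08, limma adjusted p = 0.0203).

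Of 20 regulators of the pathway 0 passed for tamoxifen, with 3 under an unadjusted 0.05, and 0 had the line B split. Of all genes 1.32% passed for tamoxifen, 1.47% passed between the lines and 4.66% had the split. Under an unadjusted 0.05 lay 1964 of all 19938 genes for tamoxifen and 1625 between the lines. In lists this short the counts are a description only. Arrdc4 differed by 0.18 (SE 0.07, limma adjusted p = 0.452), Sp1 by −0.17 (SE 0.07, limma adjusted p = 0.465), Hif1a by 0.13 (SE 0.07, limma adjusted p = 0.62) and Myc by −0.20 (SE 0.09, limma adjusted p = 0.475). Between the lines 0 of 20 passed, with 5 under an unadjusted 0.05, and Egln3, which marks HIF1A for destruction, differed by 0.50 (SE 0.11, limma adjusted p = 0.0711). Of 23 genes induced by hypoxia outside glycolysis 0 passed for tamoxifen, with 3 under an unadjusted 0.05, and the split appeared in 2, Vegfa and P4ha2. Adm, the vasodilator adrenomedullin, was the 1 of 23 that differed between the lines and was lower in line B, at −0.43 (SE 0.08, limma adjusted p = 0.0206). Of 15 targets of NRF2, the regulator of antioxidant genes, 1 passed for tamoxifen: Slc7a11, the cystine transporter, fell by 0.47 (SE 0.09, limma adjusted p = 0.037). Between the lines 0 of 15 passed, with 2 under an unadjusted 0.05, and Hmox1 and Ftl1 had the split.

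Markers of cell type were set beside these values. On the 8 arrays the fibroblast genes Vim and Fn1 lay between 12.96 and 13.14 and between 13.02 and 13.41, and the epithelial and milk protein genes Epcam and Csn2 between 5.89 and 6.09 and between 5.63 and 5.8, in a table that runs from 2.61 to 14.12. These are the brightest genes of the first list and the dimmest of the second. The fibroblast marker Lum lay between 6.47 and 9.93. The epithelial marker Krt8 lay between 7.37 and 7.76 and the milk protein gene Wap between 7.06 and 7.31, where the median gene mean was 7.34. For tamoxifen 2 of 12 fibroblast markers rose, Lum by 1.33 and Dcn by 0.88, and 1 of 11 neural and glial markers fell, Map2, at −0.38. None of 15 skeletal muscle, 7 liver, 5 red cell, 10 macrophage, 9 epithelial and mammary, 5 adipocyte and 5 endothelial markers passed, with 4 of these under an unadjusted 0.05. Between the lines, line B had more Thy1, Acta1, Tubb3 and Emcn and less Lum, Map2 and Fabp4, besides the macrophage genes, and 0 liver, red cell or epithelial and mammary markers passed, with 1 of these under an unadjusted 0.05. The collagen gene Col1a1 and the receptor gene Pdgfrb, 2 of the 12 fibroblast markers, shared the line B split of the glycolysis genes, as did Cd68, 1 of the 10 macrophage markers. Of all genes 4.66% had the split, 1.32% passed for tamoxifen and 1.47% passed between the lines. Under an unadjusted 0.05 lay 1964 of all 19938 genes for tamoxifen and 1625 between the lines. Cd68 measured 7.59 and 8.02 in line B without tamoxifen and 8.12 and 7.75 with it. Col1a1 measured 9.26 and 10.3 in line B without tamoxifen and 10.2 and 9 with it.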

How the data were processed

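The deposited table holds log2 expression values of 35556 probe sets on 8 arrays. RMA in Affymetrix Expression Console was applied to the intensities by the authors, per the labels; version, genome build and filters are not given in the sources used here. This makes the arrays share one distribution and compresses differences of dim probe sets. Array medians lay between 7.17 and 7.24. Titles set the groups; the description and extraction fields speak of mammary tumors, whereas titles, source and design text name fibroblasts. The number of arrays limits precision.

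The platform annotation gave 1 symbol for 21789 probe sets, several for 1621 and none here for 12146. Tests used limma 3.58.1 in R 4.3.3 (lmFit, eBayes) with Benjamini-Hochberg adjustment over 19938 genes at 0.05. Effects over both lines or both treatments were fitted with 1 term each for line and tamoxifen (5 residual degrees of freedom), the others from 4 group means (4 degrees). The scripts were tested on simulated data. Members and gene lists were chosen with earlier results of these data known. Named were all members, up to 4 passing genes per list and comparison (or up to 2 with the smallest p where none passed), and Pkm, Ldha, Hif1a and Myc; genes named for the line B split, as cell identity checks or for the tamoxifen labels were chosen after their values were seen. Alternatives were other scalings, filters, variance models, array weights, probe set choices, leaving out arrays, and, added after the data were seen, the leading within-group axis, its arrays and the dimmer Hk1 probe set.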

Additional observations from a re-analysis of the deposited data

Results flagged for a closer look

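Pgam2, the muscle phosphoglycerate mutase, had arrays that separated in opposite directions: both line A arrays with tamoxifen were above both without it, and both line B arrays below. The margins were narrow, with nearest arrays at 7.33 against 7.319 in line A and 7.351 against 7.375 in line B. Its SD within groups was 0.0771. Opposite separation was found for 3.57% of the 28 genes and 3.6% of all genes. The tamoxifen difference in line B minus that in line A was −0.23 (SE 0.14). It did not pass, with an unadjusted limma p of 0.143 and a limma adjusted p of 1. The axis of within-group variation held 68.5% of the spread of Pgam2 between arrays of a group.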

How the results depend on the processing

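With other scalings, filters on dim genes, variance models, array weights, probe set choices, models and with each array left out in turn, 0 of the 28 genes (26 tested under the filter) passed in any of the 7 comparisons. Of 3857 values of single genes under all alternatives, 3508 kept their direction without a call, 332 had the other direction without a call and 17 were called. With the axis as covariate, tamoxifen in line A called 1 gene, Slc2a1. That axis was drawn from the scatter within groups of the same arrays, so this call is no support either. Without line B PKM2 replicate 1 and PKM1 replicate 2, tamoxifen over both lines called 1 (Galm), the lines over both treatments 9 and with tamoxifen 4, and Tpi1 turned to 0.31. Without line B PKM2 replicate 2 and PKM1 replicate 1, the lines over both treatments called 1, Aldoa, turned to −0.46, and with tamoxifen 1, Tpi1, at −0.59. With 1 array left out, the number called stayed at 0. The median tamoxifen difference ran from −0.05 to 0.03 over both lines, 0 to 0.04 in line A and −0.18 to 0.13 in line B. The median of the tamoxifen difference in line B minus that in line A ran from −0.21 to 0.10. For line B minus line A the median ran from −0.02 to 0.13 over both treatments, −0.02 to 0.20 without tamoxifen and −0.12 to 0.17 with it. The ends of the range for tamoxifen in line B came without PKM1 replicate 1 and without PKM1 replicate 2. Calls with a line B pair left out rest on arrays picked for standing apart, so their directions are no support. A lone array is taken to vary like the other groups. The cause was not tested. No paired analysis was possible because the titles carry only serial array numbers, which run on through all groups, and the replicate numbers used here follow sample order.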
